A study of Drosophila melanogaster with 9 samples.

Results

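Of 11308 genes tested in first instar larvae of Drosophila melanogaster, 7427 differed from wild-type males in the same direction in both groups that hold little roX RNA, males without roX1 and roX2 and wild-type females. These 7427 genes are described here, and they were chosen only by the sign of their 2 differences. Both differences use the same wild-type male libraries, so most genes would share a sign even without any difference between the groups, and the count by itself shows no likeness. The 3949 higher and 3478 lower genes include 1676 whose smaller difference was under 0.1 on the log2 scale, so a shared sign can rest on a very small difference. Polyadenylated RNA was sequenced from whole larvae in 9 libraries, 3 in each group: males of genotype roX1[ex6]roX2[9-4] (roX-KO males), wild-type females and wild-type males. The labels name no stock and no age beyond the larval stage. They tie no replicate to a separate culture or animal, so a p-value here covers the spread between libraries, which may be technical. The protocol text of all 9 samples names male larvae. The study set out to learn how roX RNAs affect gene expression, and the title of the series names repression of autosomal genes.

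The roX RNAs are long noncoding RNAs of the X that assemble with the MSL proteins into the complex that raises transcription of the single male X. Females do not assemble this complex, because the female protein Sex-lethal blocks production of MSL2, and they keep little roX RNA. Males without both roX RNAs have mislocalised complex and usually die as larvae or pupae. The heat shock genes, which turned out to be prominent among the shared differences, encode chaperones that hold or refold unfolded proteins, and heat shock factor switches many of them on within minutes of a temperature rise or another protein-folding stress.

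The roX genes followed the labels in all 9 libraries. On the CPM scale (TMM-scaled counts divided by library size), roX1 (FBgn0019661, X, 3857230 to 3862697, dm6) had 3.18, 2.77 and 3.40 CPM in roX-KO males and 23.8, 22.02 and 20.9 CPM in females, against 326, 299 and 360.4 CPM in wild-type males. The log2 fold change against wild-type males was -6.71 ± 0.12 in roX-KO males and -3.88 ± 0.14 in females (SE, n = 3 per group). Wild-type males were the highest of the 3 groups in every library, and roX-KO males the lowest. The gene roX2 (FBgn0019660, X, 11579065 to 11580432) had 0 counts in each roX-KO library and 3, 4 and 6 counts in females, against 150, 181 and 162 in wild-type males. The roX-KO males were thus at least 191-fold lower, computed with a floor of 3 counts over the group, and females had a log2 fold change of -5.24. Sxl, the female sex switch, and msl-2, its target, were outside the shared set. Sxl was higher in females alone (log2 fold change 1.05, against -0.03 in roX-KO males), and msl-2 differed in opposite directions (0.45 in roX-KO males and -1.83 in females). The Y-linked gene FDY had 21.98, 18.8 and 20.9 CPM in roX-KO males and 0.216, 0.273 and 0.266 CPM in females, against 6.08, 6.32 and 6.49 CPM in wild-type males.

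The libraries held between 17318293 and 18020359 counts in genes. Libraries of each male group correlated at 0.991 to 0.996 (Pearson, over genes), and females 1 and 2 at 0.996, but female 3 stood apart at 0.955 and 0.958. Wild-type male 2 deviated from its group in the direction that female 3 deviated from its own (correlation of deviations 0.785 over 10053 genes). The gene w, needed for eye pigment and a common stock marker, had 0.0504, 0.106 and 0.1001 CPM in roX-KO males and 12.1, 12.9 and 14.1 CPM in females, against 0.351, 0.361 and 0.180 CPM in wild-type males, so the female libraries differed from both male groups at this locus. No label gives a batch, and for the female libraries sex cannot be told apart from stock or from any difference in how they were made. Both comparisons use the same 3 wild-type male libraries, so whatever is particular to those 3 enters both differences with the same sign, and it cannot be told apart from a difference shared by the other groups.

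With edgeR's quasi-likelihood test and Benjamini-Hochberg adjustment over all genes, 721 genes were higher in both roX-KO males and females than in wild-type males (6.38% of the genes tested) and 874 were lower in both (7.73%). Against wild-type males, 63.1% of all genes passed in roX-KO males, 3521 of them higher (31.1%) and 3610 lower (31.9%). In females 21.7% passed, 1196 higher (10.6%) and 1254 lower (11.1%). Together the shared genes are 14.1% of the genes tested. The 721 genes make up 20.48% of those higher in roX-KO males and 60.28% of those higher in females, and the 874 make up 24.21% and 69.7% of the lower ones. A further 293 genes passed in both comparisons with opposite signs. Among the shared genes, 151 were at least 2-fold higher in both groups (1.34% of all) and 236 at least 2-fold lower in both (2.09%). All 6 libraries lay on the same side of all 3 wild-type male libraries for 718 of the 721 and 870 of the 874, beside 12.1% of all genes with all 6 above and 12.9% with all 6 below. The choice of genes by both comparisons all but fixes this, so nothing is read from it. When the means of both groups were weighted equally and set against wild-type males in 1 fit, 1767 genes with a shared sign were higher (15.6%) and 1946 lower (17.2%).

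How many genes passed changed more when a wild-type male or female library was left out than with the scaling. Without roX-KO male 1, 2 or 3 there were 668, 691 or 682 higher and 813, 843 or 835 lower shared genes. Without female 3 there were 1820 higher and 1908 lower shared genes, without female 1 452 and 617, and without female 2 403 and 557. Leaving out wild-type male 1, 2 or 3 left 270, 346 or 250 higher and 462, 540 or 486 lower genes. Each of these also makes the group used in both comparisons smaller, which cannot be told apart from the part of a single library. Scaling by total counts instead of TMM gave 855 higher and 663 lower genes, a turn towards higher genes that came with a shift of the median of all genes in roX-KO males to 0.25, against 0.02 with TMM. Of the 1595 shared genes, 1593 also passed without female 3, and 58 of the 102 genes chosen by rule for description passed in both comparisons under all 18 other settings.

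Heat shock genes led the genes lower in both groups. Of 9 small heat shock genes tested 4 were lower and 2 higher in both. Of 14 genes for Hsp70, Hsp90 and their cofactors 13 were lower in both and 0 higher. The shares over all genes tested were 7.73% lower and 6.38% higher in both. The median log2 fold changes of the 14 were -1.54 in roX-KO males and -1.74 in females, beside 0.02 and 0.04 over all genes tested. The genes of both lists together took 0.318, 0.311 and 0.318% of all counts in roX-KO males and 0.224, 0.223 and 0.184% in females, against 0.607, 0.603 and 0.586% in wild-type males. The wild-type male libraries were thus the high ones and the females the low ones, with no overlap among the 3 groups. Less RNA per cell and fewer cells that make it cannot be told apart in whole larvae.

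Hsp27 (FBgn0001226, 3L, 9384063 to 9385694), a small heat shock protein that keeps unfolded proteins from aggregating, had 32.1, 31.7 and 32.5 CPM in roX-KO males and 9.52, 9.40 and 10.4 CPM in females, against 157, 162 and 155 CPM in wild-type males. Its log2 fold change was -2.30 ± 0.07 in roX-KO males (edgeR adjusted p = 3.68e-11) and -4.02 ± 0.13 in females (edgeR adjusted p = 3.21e-05; SE, n = 3 per group). The replicates of each group lay close together, and the roX-KO males stood between the other groups. Hsp26 (FBgn0001225, 3L, 9376418 to 9377427), its neighbour with the same kind of activity, had 47.5, 47.8 and 48.1 CPM in roX-KO males and 14.5, 18.2 and 22.8 CPM in females, against 304, 340.4 and 271 CPM in wild-type males. The log2 fold changes were -2.67 in roX-KO males and -4.04 in females. Its 3 groups stood in the order seen for Hsp27 and did not overlap. Hsp23 (FBgn0001224, 3L, 9381882 to 9382765) lies between them and had 37.2, 43.8 and 39.9 CPM in roX-KO males and 23.4, 25.9 and 33.1 CPM in females, against 169.7, 183 and 158 CPM in wild-type males. Its log2 fold changes were -2.08 in roX-KO males and -2.63 in females. The weakly expressed Hsp67Ba of the same cluster had log2 fold changes of -1.28 in roX-KO males and -1.37 in females, but 76% of its exons lie under a gene of the other strand, so its reads are uncertain. All 4 were lower in every roX-KO and female library than in any wild-type male library, beside 12.9% of all genes. The choice of shared genes all but fixes this, so nothing is read from it. The list had 4 lower members under each of the 18 other settings apart from both that leave out female 3, where it had 5. The other members did not share this. CG13133 (0.87 and 1.08) and CG7409 (0.62 and 0.94) were higher in both groups. The gene l(2)efl was higher in roX-KO males alone (0.73, against 0.14 in females), CG14207 was lower in roX-KO males alone (-0.75 and -0.12) and Hsp67Bc had values of 0.02 and 0.05.

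Hsp68 (FBgn0001230, 3R, 24055080 to 24057310), an inducible member of the Hsp70 family, had 51.1, 52.9 and 53.7 CPM in roX-KO males and 15.5, 15.2 and 16.9 CPM in females, against 185, 178 and 194 CPM in wild-type males. The log2 fold changes were -1.82 ± 0.07 and -3.55 ± 0.13 (SE, n = 3 per group; edgeR adjusted p = 3.92e-10 for roX-KO males and 3.87e-05 for females). As for Hsp27, females were lowest, roX-KO males intermediate and wild-type males highest, with no overlap. Hsp83 (FBgn0001233, 3L, 3192969 to 3197059), the cytosolic Hsp90 of the fly, had 709, 761 and 729 CPM in roX-KO males and 289, 299.9 and 275 CPM in females, against 2178, 2162 and 2174 CPM in wild-type males. Its log2 fold changes were -1.57 ± 0.08 and -2.92 ± 0.14. DnaJ-1 (FBgn0263106, 3L, 5750029 to 5752189), an Hsp40 cochaperone that hands substrates to Hsp70, had 39.1, 42.00 and 42.6 CPM in roX-KO males and 46.4, 41.5 and 27.6 CPM in females, against 174, 168 and 180.2 CPM in wild-type males. Here roX-KO males and females overlapped and both lay far below wild-type males (-2.08 in roX-KO males and -2.18 in females). The copies of Hsp70 itself were rare in all groups. Hsp70Ab had 0.958, 1.75 and 1.35 CPM in roX-KO males and 0.649, 0.546 and 0.465 CPM in females, against 15.8, 13.3 and 17.2 CPM in wild-type males. Hsp70Ba had 0.403, 0.798 and 0.2002 CPM in roX-KO males and 0.379, 0.710 and 0.266 CPM in females, against 10.6, 9.15 and 10.8 CPM in wild-type males. With Hsp70Aa (log2 fold changes -5.07 and -3.60) and Hsp70Bc (-4.15 and -3.61) they were lower in both groups, but these copies are nearly identical, so how the reads were split among them is uncertain.

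The cofactors were lower by less. Hsp110, which recharges Hsp70 with ATP, had 282, 280.5 and 294 CPM in roX-KO males and 234, 240.4 and 172 CPM in females, against 516, 491 and 487 CPM in wild-type males and log2 fold changes of -0.80 and -1.21. The BAG-family cochaperone starvin (stv) had log2 fold changes of -0.90 in roX-KO males and -1.31 in females, the DnaJ-type Droj2 -0.49 and -1.11, mrj -0.21 and -0.66 and CG1416, listed by RefSeq as Aha1 after the activator of Hsp90, -0.71 and -0.97. Hsp60A, the X-linked mitochondrial chaperonin, had -1.52 and -0.95. Stip1, which bridges Hsp70 and Hsp90 but was in neither list, had -0.71 in roX-KO males and -1.34 in females and was lower in both. The 1 member of the list that was not lower was Hsf, the heat shock factor, with 54.4, 50.03 and 55.7 CPM in roX-KO males and 48.9, 50.5 and 42.03 CPM in females, against 48.7, 39.8 and 47.9 CPM in wild-type males, a log2 fold change of 0.23 in roX-KO males (edgeR adjusted p = 0.0395) and of 0.05 in females (edgeR adjusted p = 0.83). The count of 13 lower members was 12 or 13 under every other setting, and edgeR at an unadjusted p under 0.05 and DESeq2 also found 0 higher.

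**Figure D1:**
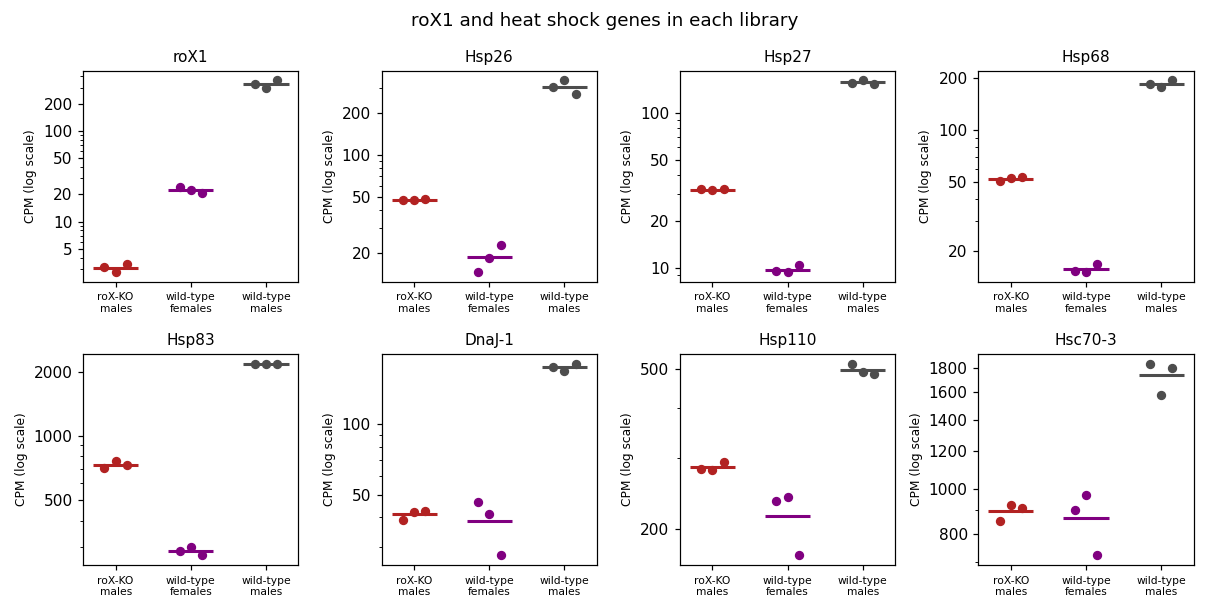
CPM (log axis) of roX1 and 7 chaperone genes in each library, with a line at the mean of each group (n = 3). For every gene the wild-type male libraries lie above the other 6, and for Hsp26, Hsp27, Hsp68 and Hsp83 the females lie below the roX-KO males, while for roX1 the roX-KO males lie lowest.

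Several of these genes also differed between roX-KO males and females, which was tested in the 6 libraries that exclude wild-type males. There 27.2% of all genes differed, 10.7% higher and 16.5% lower in roX-KO males. Hsp27 was higher in roX-KO males than in females by 1.71 on the log2 scale (95% interval 1.44 to 1.97; edgeR adjusted p = 7.72e-05), Hsp68 by 1.72 (1.46 to 1.98), Hsp26 by 1.36 (0.96 to 1.76) and Hsp83 by 1.34 (1.04 to 1.64). Of the 4 lower small heat shock genes 3 differed this way, and of the 13 lower members of the other list 4 were higher and 1, Hsp60A, was lower in roX-KO males than in females. Hsp60A had a difference of -0.57 (95% interval -0.85 to -0.30). For DnaJ-1 the difference of 0.08 (95% interval -0.40 to 0.57) did not pass. Nor did those of Hsp70Aa (-1.47), Hsp70Bc (-0.55) and Hsp70Ba (-0.0045), the rare copies with some of the largest falls against wild-type males.

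Chaperones that cells make without stress were lower too, by smaller amounts. Of 16 such genes, 12 were lower in both groups, beside 7.73% of all genes tested. The 16 had median log2 fold changes of -0.47 in roX-KO males and -0.68 in females. All 8 subunits of the cytosolic chaperonin TRiC, which folds actin and tubulin, were among the 12. CCT2 had 169, 173 and 164 CPM in roX-KO males and 216, 214 and 205.1 CPM in females, against 387, 421 and 384 CPM in wild-type males, with log2 fold changes of -1.24 and -0.91, and CCT5 had -0.57 and -0.70. The X-linked CCT6 was lower in roX-KO males than in females as well (-0.42; 95% interval -0.68 to -0.17). Hsc70-3, the Hsp70 of the endoplasmic reticulum, had 854, 922 and 909 CPM in roX-KO males and 902, 972 and 722 CPM in females, against 1841, 1582 and 1799 CPM in wild-type males. Its log2 fold changes were -0.96 in roX-KO males and -1.01 in females. Hsc70-5, the Hsp70 of mitochondria, had 523, 527 and 544 CPM in roX-KO males and 514, 542 and 467 CPM in females, against 937, 897 and 926 CPM in wild-type males. Hsc70-4, the abundant cytosolic Hsc70, was lower in roX-KO males (-0.28) and had -0.54 in females, where it missed the threshold (edgeR adjusted p = 0.0621). The count of 12 was 6, 7 or 8 without wild-type male 1, 2 or 3, 8 without female 2, and 14 without female 3. Of 13 genes of the unfolded protein response of the endoplasmic reticulum 3 were lower in both: the Hsp90-type Gp93 (-0.76 and -0.84), the stress kinase PEK (-0.28 and -1.04) and Sil1, a cofactor of Hsc70-3 (-0.24 and -1.10). Xbp1, Ire1 and the other 8 were not shared.

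Transcripts of the mitochondrial genome were also lower. They took 6.48, 8.45 and 6.46% of counts in roX-KO males and 6.56, 5.70 and 8.06% in females, against 9.70, 10.1 and 12.3% in wild-type males. The 6 libraries all lay below the 3 wild-type male libraries, by less than the heat shock genes. Of 18 mitochondrial genes tested 16 were lower in sign in both groups, beside 3478 of all 11308 genes. Of the 18, 5 passed in both, beside 7.73% of all genes tested. In roX-KO males 15 were lower and in females 6, beside 31.9% and 11.1% of all genes. Median log2 fold changes were -1.04 and -0.74. The respiratory subunit gene mt:ND5 had log2 fold changes of -1.08 in roX-KO males and -0.93 in females, mt:Cyt-b had -0.60 and -0.77, and mt:CoI, not shared, had -0.26 and -0.72. Without any 1 wild-type male library 1 or 2 of the 18 passed in both, without female 1 or 2 it was 2 or 1, and without female 3 it was 13. The library was selected for poly(A), and leaving the mitochondrial genes out of the scaling left 677 higher and 895 lower shared genes. Nuclear genes of oxidative phosphorylation did not follow in females. Of 72, 65 were lower in roX-KO males and 2 in females, beside the same 31.9% and 11.1% of all genes. The 1 shared was the paralog ATPsynepsilonL (-1.26 and -3.62).

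**Figure D2:**
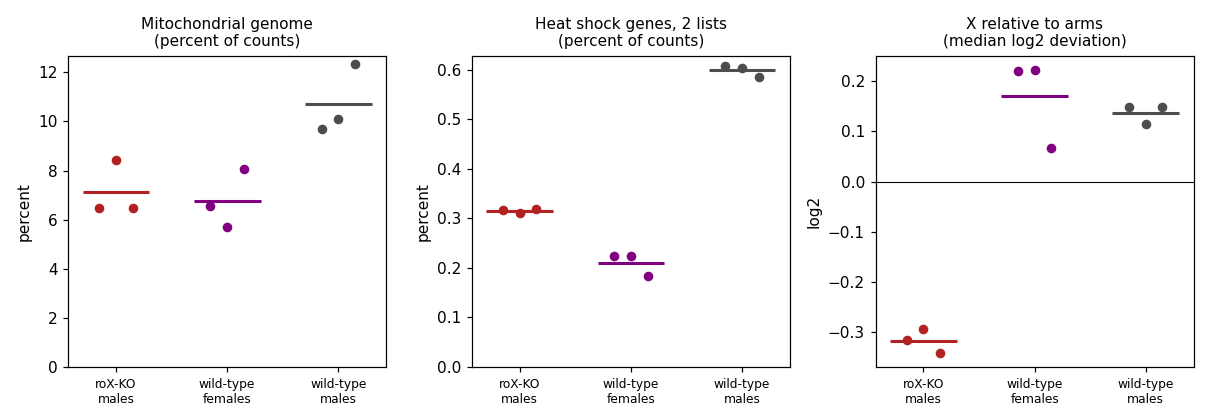
Share of counts from the mitochondrial genome and from the 2 heat shock lists, and the median log2 deviation of X genes from autosomal arm genes, in each library with group means (n = 3). Mitochondrial and heat shock shares are highest in the 3 wild-type male libraries, while the X measure is lowest in roX-KO males (-0.32, -0.29 and -0.34) and positive in females and wild-type males.

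Of 31 genes for antimicrobial peptides and immune signalling 9 were lower and 1 higher in both, beside 7.73% and 6.38% of all genes tested. The attacin gene AttA had 15.8, 19.1 and 15.4 CPM in roX-KO males and 13.6, 14.6 and 29.3 CPM in females, against 59.4, 74.2 and 60.3 CPM in wild-type males. Its log2 fold changes were -1.95 and -1.76, while AttB had -1.07 and -1.90 and AttC -1.56 and -0.69. The cecropin genes CecB and CecC stood near the detection limit. CecC had 1.21, 0.744 and 1.20 CPM in roX-KO males and 0.757, 0.546 and 1.79 CPM in females, against 2.92, 4.15 and 3.06 CPM in wild-type males. Rel, the NF-kB factor of the Imd pathway, had -0.22 and -1.69, and pirk and PGRP-LF, inhibitors of that pathway, had -0.64 and -1.93 and -0.33 and -1.43. For PGRP-LF 44% of the exons lie under a gene of the other strand, so its reads are uncertain. The 1 higher member of the list is not named here. PGRP-SC1b, an amidase that degrades bacterial cell wall and is not in this list, was also higher in both groups. It had 15.8, 16.3 and 15.4 CPM in roX-KO males and 21.3, 23.3 and 28.4 CPM in females, against 4.44, 5.17 and 4.92 CPM in wild-type males. The count of 9 was 4 or 5 without any 1 wild-type male library and 5 without female 1 or 2, and with total counts it was 6 lower and 3 higher.

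Of 105 cuticle protein genes 31 were lower and 4 higher in both, beside 7.73% and 6.38% of all genes tested. In roX-KO males 94 of the 105 were lower, beside 31.9% of all genes. In females 31 were lower and 24 higher, beside 11.1% and 10.6% of all genes. Every cuticle gene that was lower in females was thus lower in roX-KO males as well. Lcp65Ae, a larval cuticle protein gene, had 4.64, 3.67 and 3.90 CPM in roX-KO males and 17.03, 17.2 and 31.2 CPM in females, against 103, 132 and 110.4 CPM in wild-type males. Its log2 fold changes were -4.82 in roX-KO males and -2.40 in females. Here the roX-KO males were the lowest group, below females by -2.42 (95% interval -3.07 to -1.77; edgeR adjusted p = 0.000982). Lcp4 had -2.35 and -1.55, and Lcp3 differed more in females (-0.37 and -2.68). Of the 35 shared cuticle genes 23 were lower in roX-KO males than in females and 2 higher. Cpr47Ed, a cuticle gene that was higher, had 9.13, 10.7 and 12.7 CPM in roX-KO males and 16.1, 16.7 and 19.1 CPM in females, against 2.22, 2.77 and 2.16 CPM in wild-type males. Cuticle genes together took 0.720, 0.705 and 0.717% of counts in roX-KO males and 1.08, 1.15 and 1.41% in females, against 1.41, 1.63 and 1.38% in wild-type males, and female 3 overlapped the wild-type males. The count of 31 was between 16 and 21 without any 1 wild-type male library or without female 1 or 2, and 57 without female 3. Cuticle genes change with moulting, and the ages of the larvae within the instar are not given.

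Of 17 genes of the larval serum and fat body list 7 were lower in both, beside 7.73% of all genes tested. Fbp1, the fat body receptor that takes up serum proteins, had 0.202, 0.106 and 0.250 CPM in roX-KO males and 0.432, 0.164 and 0.332 CPM in females, against 1.52, 1.93 and 1.20 CPM in wild-type males. The serum storage protein genes Lsp1gamma (-1.80 and -1.84) and Lsp2 (-3.12 and -1.66, with 85% of its exons under a gene of the other strand and hence uncertain) were as rare. The abundant apolpp, the lipoprotein precursor that carries lipids in the blood, had 2096, 2013 and 2051 CPM in roX-KO males and 2005, 1841 and 1603 CPM in females, against 3167, 2796 and 3444 CPM in wild-type males, and Lsd-1, which coats lipid droplets, had -0.64 and -1.72. The list summed to 4593, 4542 and 4542 CPM in roX-KO males and 3958, 3739 and 3768 CPM in females, against 6078, 5527 and 6332 CPM in wild-type males. The count of 7 was 3 without any 1 wild-type male library or without female 2.

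In the list of DNA replication and mitosis 8 of 37 genes were lower in both and 1 higher. Mcm3 and Mcm6, subunits of the replicative helicase encoded on the X, had -0.85 and -1.02 and -0.75 and -0.46, Mcm7 had -0.22 and -0.74 (uncertain, with 82% of its exons under a gene of the other strand), the sliding clamp PCNA had -0.30 and -0.83 and the mitotic kinase gene polo -0.72 and -1.68. Cyclin D (CycD) had 12.4, 13.8 and 11.8 CPM in roX-KO males and 14.2, 16.9 and 12.7 CPM in females, against 25.4, 23.9 and 26.5 CPM in wild-type males. Cdk2 was higher in both (1.15 and 1.88), but a gene on the other strand overlaps 44% of its exons and no step that marks strand is named in the labels, so its reads are uncertain. Of the 4 shared germline genes, 3 had small differences in roX-KO males and large ones in females. For the remaining gene the difference between roX-KO males and females did not pass. The Piwi gene aub had 5.75, 6.27 and 6.16 CPM in roX-KO males and 1.14, 1.42 and 0.598 CPM in females, against 9.30, 7.28 and 9.79 CPM in wild-type males, while vas had -0.32 and -3.32 and zpg -0.41 and -5.13. With total counts, or in 1 fit of all 9 libraries, 0 germline genes were lower in both. Likewise, the 4 shared ribosomal protein genes of 88 were variant paralogs. RpL22-like had 8.17, 7.18 and 8.51 CPM in roX-KO males and 0.216, 0.164 and 0.0664 CPM in females, against 20.99, 22.3 and 20.9 CPM in wild-type males, and RpS19b had log2 fold changes of -1.03 and -5.20. Rpt3R (-0.64 and -2.79) and Rpt4R (-0.56 and -1.43), paralogs of proteasome subunits, were the 2 shared of 34 proteasome genes. Over all genes tested 7.73% were lower in both, so neither the ribosomal nor the proteasome count stands above the share of all genes.

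Other genes had large shared falls. CG10474 had 17.4, 17.3 and 20.02 CPM in roX-KO males and 8.16, 8.52 and 12.3 CPM in females, against 130.0, 142 and 129 CPM in wild-type males. CG11350 had 66.2, 96.1 and 62.5 CPM in roX-KO males and 84.8, 99.01 and 122 CPM in females, against 473, 628 and 403 CPM in wild-type males. On the X, CG34330 had 1.11, 0.691 and 0.701 CPM in roX-KO males and 1.14, 1.48 and 2.66 CPM in females, against 10.5, 14.02 and 10.4 CPM in wild-type males. These 3 have no name that states a function. Alp9, an alkaline phosphatase, had 52.8, 56.5 and 51.4 CPM in roX-KO males and 63.4, 61.6 and 82.99 CPM in females, against 281, 314 and 281 CPM in wild-type males. Its log2 fold changes were -2.45 in roX-KO males and -2.07 in females, and females lay slightly above roX-KO males, all far below wild-type males. Keap1, which holds back the oxidative stress factor CncC, had 18.6, 18.1 and 18.8 CPM in roX-KO males and 22.1, 21.9 and 15.5 CPM in females, against 43.97, 36.8 and 42.03 CPM in wild-type males. Here the roX-KO males lay within the range of the females. Jra and kay, which encode the Jun and Fos subunits of AP-1, had -0.61 and -1.17 and -0.37 and -1.002. The clock gene tim had 3.33, 2.77 and 3.60 CPM in roX-KO males and 3.62, 4.92 and 3.85 CPM in females, against 8.42, 6.80 and 8.65 CPM in wild-type males, and the labels give no time of day. The tyrosine hydroxylase gene ple, which feeds dopamine and cuticle tanning, had 281, 270.2 and 278 CPM in roX-KO males and 64.8, 65.95 and 41.1 CPM in females, against 441, 399.6 and 440.1 CPM in wild-type males. For ple the shared sign joins unlike differences, -0.63 in roX-KO males and -2.90 in females.

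Among genes with a mean log2 CPM of at least 1 and all 6 libraries above the wild-type males, the 8 with the largest shared rises are known by number only. CG32189 (FBgn0052189, 3L, 17834745 to 17835174) had 102, 85.9 and 117 CPM in roX-KO males and 69.1, 80.3 and 159 CPM in females, against 8.24, 12.03 and 8.53 CPM in wild-type males, with log2 fold changes of 3.41 ± 0.15 (edgeR adjusted p = 9.82e-10) and 3.42 ± 0.37 (edgeR adjusted p = 0.00156; SE, n = 3 per group). Its neighbour CG32188 had 10.5, 7.71 and 12.5 CPM in roX-KO males and 12.4, 11.6 and 34.2 CPM in females, against 1.64, 1.56 and 1.68 CPM in wild-type males. In both genes female 3 was well above the other females. CG13946 had 3.08 and 2.96, CG13983 2.63 and 2.64 and CG3397 2.39 and 3.15. CG44666, CG43711 and CG43677 belong to a block on 2R.

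Among such genes with a name, the transcription factor gene rib, known from tracheal tube formation, had 52.4, 47.3 and 52.1 CPM in roX-KO males and 22.6, 21.4 and 11.8 CPM in females, against 6.14, 4.15 and 6.61 CPM in wild-type males. Its level in roX-KO males was above that in females by 1.43 (95% interval 0.83 to 2.02). The gene sha, needed for actin-based hairs of the epidermis, had 13.2, 10.7 and 13.1 CPM in roX-KO males and 16.1, 17.4 and 9.29 CPM in females, against 3.04, 3.61 and 4.08 CPM in wild-type males. The cytochrome P450 gene Cyp4e3 had 35.5, 37.8 and 35.2 CPM in roX-KO males and 11.03, 9.02 and 8.03 CPM in females, against 3.45, 3.07 and 2.94 CPM in wild-type males. The gut protease gene Bace had 40.3, 49.5 and 42.8 CPM in roX-KO males and 4.60, 4.43 and 6.97 CPM in females, against 1.40, 2.53 and 1.501 CPM in wild-type males. In Cyp4e3 and Bace the roX-KO males were far above both other groups, by 1.94 and 3.05 over females. The UDP-glycosyltransferase gene Ugt302K1 (1.496 and 2.21) and CHKov2, of a choline kinase-like family (1.89 and 1.64), complete the 8 named genes with the largest rises.

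**Figure D3:**
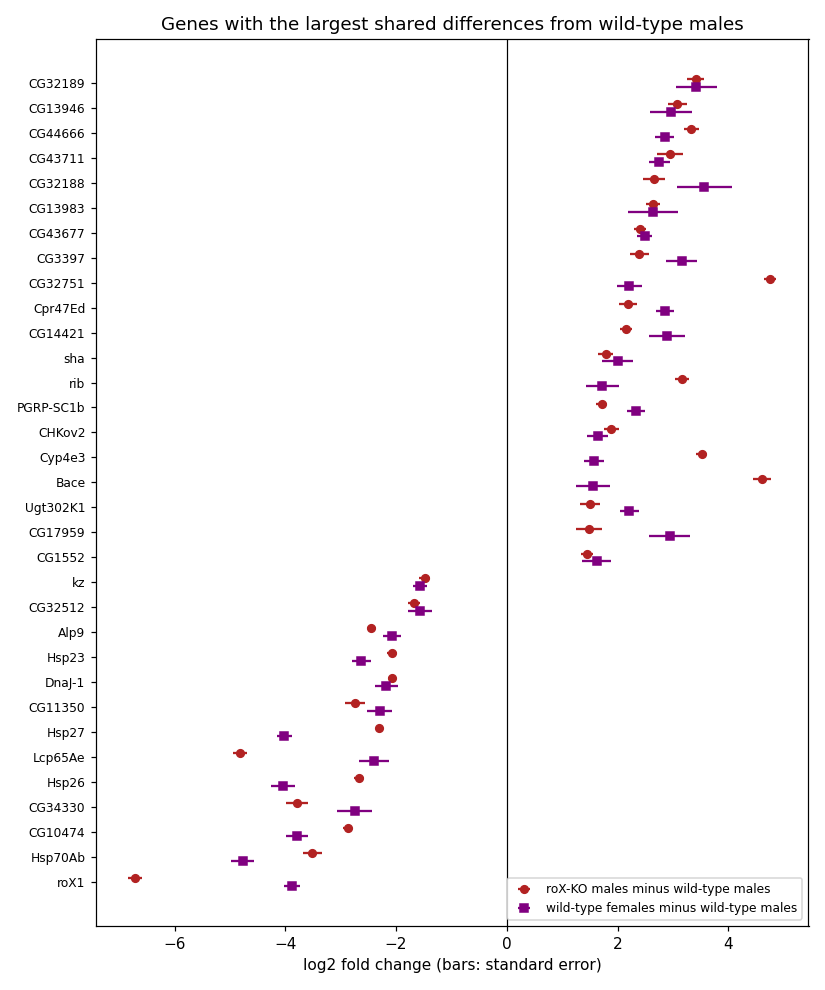
Log2 fold changes against wild-type males, with standard errors, of the genes with the largest shared differences among those with a mean log2 CPM of at least 1, for roX-KO males (circles) and females (squares), ordered by the smaller of the 2. CG32189 at the top has 3.41 and 3.42, roX1 at the bottom has -6.71 and -3.88, and Hsp27, Hsp26 and Hsp70Ab have larger falls in females while Lcp65Ae has the larger fall in roX-KO males.

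Of 21 genes of the p53, apoptosis and DNA damage list 6 were higher in both and 1 lower, beside 6.38% and 7.73% of all genes tested. All 3 genes of the Mre11 complex, which binds and processes broken DNA ends, were among the 6. The gene rad50 had 61.8, 50.6 and 56.4 CPM in roX-KO males and 42.3, 45.6 and 43.8 CPM in females, against 20.4, 20.5 and 19.4 CPM in wild-type males. The gene mre11 had 30.6, 27.9 and 29.7 CPM in roX-KO males and 13.6, 14.4 and 19.2 CPM in females, against 7.37, 8.48 and 8.77 CPM in wild-type males, and nbs had log2 fold changes of 0.34 and 0.80. Both Ku subunits, which bind broken ends for joining, were higher as well. Irbp, the fly Ku70, had 17.4, 18.4 and 18.3 CPM in roX-KO males and 25.2, 25.5 and 21.6 CPM in females, against 10.7, 9.39 and 8.59 CPM in wild-type males. Ku80 had log2 fold changes of 1.17 and 0.56. The sixth was the cell death gene rpr, at a low level (2.22, 1.75 and 2.40 CPM in roX-KO males and 2.60, 2.40 and 2.92 CPM in females, against 1.29, 1.69 and 1.38 CPM in wild-type males). Gadd45 was lower (-1.12 and -0.73), and hid, another cell death gene, was higher in roX-KO males only (1.27, against 0.17 in females). The count of 6 was 3 without any 1 wild-type male library, 4 without female 1 or 2 and 8 without female 3. The list's median log2 fold changes were 0.35 in roX-KO males and 0.12 in females. In roX-KO males 15 of 21 were higher, beside 31.1% of all genes.

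Of 41 detoxification genes 4 were higher and 5 lower, beside 6.38% and 7.73% of all genes tested, with GstE3 at -0.94 and -0.90. In the nutrient and insulin list 4 of 22 were higher and 1 lower, among them the lipase gene Lip4 (1.09 and 0.51) and the insulin-responsive glucosidase gene tobi (1.05 and 0.76). The lower one was the insulin-like peptide gene Ilp5 (-3.34 and -1.17). Of 22 ecdysone genes 3 were higher and 1 lower. Hr3, an early-late receptor gene, had 7.46, 6.27 and 7.56 CPM in roX-KO males and 4.97, 4.26 and 3.72 CPM in females, against 2.05, 2.23 and 2.10 CPM in wild-type males, but another gene of the same strand overlaps 83% of its exons, so its reads are uncertain. The gene br had log2 fold changes of 0.57 and 0.64, while Cyp18a1, which inactivates the hormone, was lower (-0.99 and -0.56). The list of 12 immediate early and JNK genes had 3 lower and 1 higher. Of 23 sugar metabolism genes 1 was lower, Gpdh1 (-0.45 and -0.84). The stress peptide gene TotC was higher in both but by unlike amounts (4.21 and 1.38). Eye pigment and stock markers had 3 of 24 higher, with the cuticle gene m at 0.47 and 1.55 and cn at 0.71 and 0.61, where 69% of the exons lie under a gene of the other strand, so its reads are uncertain.

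**Figure D4:**
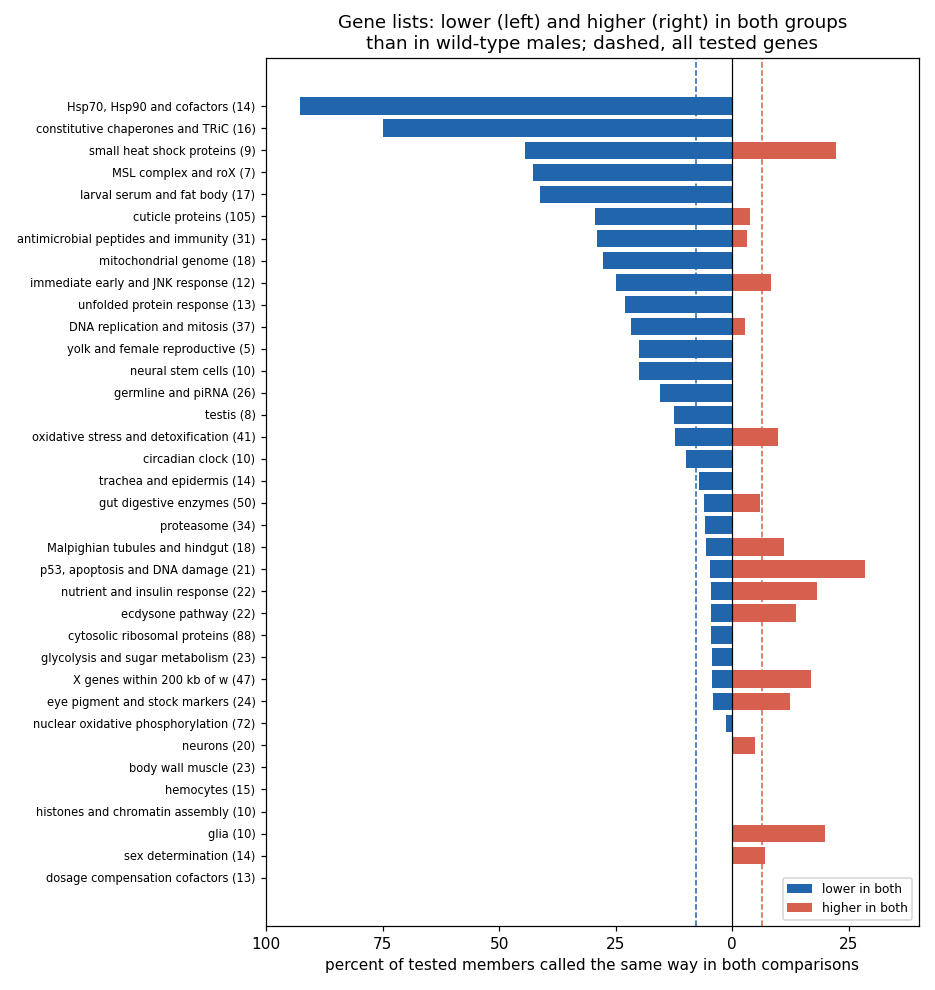
Percent of the tested members (number in brackets) of each gene list with at least 5 tested members that were lower (left) or higher (right) in both groups than in wild-type males, with dashed lines at 7.73% and 6.38%, the shares over all genes tested. The chaperone lists reach furthest left, and the p53, apoptosis and DNA damage list furthest right of those shown with 6 of 21.

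Of the cell type lists, 0 of 23 body wall muscle genes and 0 of 15 hemocyte genes were shared in either direction, by edgeR, although 21 of the 23 muscle genes were lower in roX-KO males. At an unadjusted p under 0.05 in both comparisons 2 muscle genes were lower and 1 hemocyte gene was lower and 1 higher, and by DESeq2 2 muscle genes and 1 hemocyte gene were lower. Muscle markers summed to between 31560 and 31890 CPM in roX-KO males and between 52960 and 55850 CPM in females, against 59240 to 60770 CPM in wild-type males. Of 20 neuronal genes 16 were higher in roX-KO males and 1 in females, and the calcium channel gene cac was the 1 shared (19.7, 21.4 and 16.8 CPM in roX-KO males and 22.6, 19.6 and 17.9 CPM in females, against 12.3, 9.99 and 13.1 CPM in wild-type males). Neuronal markers summed to 1647, 1614 and 1627 CPM in roX-KO males and 1461, 1361 and 822 CPM in females, against 1073, 858 and 1125 CPM in wild-type males. Female 3 was the lowest of the 9, and without it 13 of the 20 neuronal genes passed as higher in both. The glial genes alrm and repo were higher (1.14 and 0.73 and 0.72 and 0.90, 2 of 10). The neuroblast genes mira and wor were lower (-1.14 and -0.81 and -1.26 and -0.74, 2 of 10). Without any 1 wild-type male library 0 of the glial and at most 1 of the neuroblast genes passed. Of 50 digestive enzyme genes 3 were higher and 3 lower. Over all genes tested 6.38% were higher in both and 7.73% lower in both, the shares to set beside this paragraph's counts of shared genes. For counts in roX-KO males alone the shares were 31.1% higher and 31.9% lower. For counts in females alone they were 10.6% higher and 11.1% lower. Nothing is read from counts near these shares. The trypsin gene alphaTry had 82.3, 95.8 and 78.1 CPM in roX-KO males and 91.2, 88.8 and 171 CPM in females, against 31.6, 40.9 and 29.7 CPM in wild-type males. The sum of the list was between 12200 and 13470 CPM in roX-KO males, 17080 and 31750 CPM in females and 16560 and 20890 CPM in wild-type males. Among the smaller lists, TwdlC of trachea and epidermis (-3.08 and -0.64), Yp3 of the yolk list (-0.80 and -1.76) and vis of the testis list (-1.28 and -1.36) were lower. The sex determination gene tra was higher (0.66 and 0.64). Of 18 tubule and hindgut genes Dh31-R (0.57 and 0.64) and tsh (0.38 and 0.60) were higher and Smvt lower (-0.24 and -0.41). Whether these markers have a part in the shared differences was not tested. Of the MSL list, mof, the acetyltransferase of the complex, was the 1 shared gene beside the roX genes (11.9, 13.03 and 13.7 CPM in roX-KO males and 11.7, 11.04 and 9.16 CPM in females, against 26.96, 17.6 and 17.4 CPM in wild-type males), and of 13 cofactors of dosage compensation 0 were shared by edgeR or DESeq2 and 1 was lower at an unadjusted p under 0.05.

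On the X, 83 of 1780 tested genes were higher in both (4.66%) and 170 lower in both (9.55%), beside 635 (6.76%) and 694 (7.39%) of the 9391 genes tested on the large autosomal arms. The comparisons differed on the X far more than this: 58.3% of X genes were lower in roX-KO males and 10.2% in females. On the large autosomal arms 27% and 11.3% were lower. Median log2 fold changes were -0.41 and 0.09 on the X and 0.08 and 0.03 on the arms. Among X genes with a mean log2 CPM of at least 1, which leaves out roX2, the largest shared falls after roX1 and CG34330 were those of CG32512 (-1.68 and -1.57) and kz, an RNA helicase gene with 8.17, 9.25 and 9.51 CPM in roX-KO males and 8.54, 8.69 and 8.17 CPM in females, against 26.1, 23.8 and 25.6 CPM in wild-type males. Of these X genes CG32751 had the largest shared rise, with 57.3, 53.6 and 56.4 CPM in roX-KO males and 8.76, 7.70 and 12.3 CPM in females, against 2.34, 1.93 and 1.92 CPM in wild-type males. Next were CG14421 (log2 fold changes 2.15 and 2.89), CG17959 (1.48 and 2.94) and CG1552 (1.45 and 1.62). CG14421 and CG17959 lie within 200 kb of w. Of 47 tested genes in that window 8 were higher and 2 lower in both, among them CG3598 with 206, 219 and 197 CPM in roX-KO males and 238, 219.8 and 432 CPM in females, against 71.8, 83.9 and 72.7 CPM in wild-type males. Chromosome 4 had 3 higher and 3 lower of 92 (3.26% each way).

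Of the 1595 shared genes, 591 also differed between roX-KO males and females, beside 27.2% of all genes tested. Among all genes, roX-KO males were above females for 10.7% and below for 16.5%. Of the 721 higher genes, roX-KO males were above females for 51, below for 164, and the difference did not pass for 506. Of the 874 lower genes, roX-KO males were above females for 239, below for 137, and the difference did not pass for 498. Where it did not pass, the 95% interval reached a median of 0.36 (higher genes) and 0.39 (lower genes) to either side of each gene's estimate (log2 scale). Differences within that reach of the estimate are not excluded, and these can be larger than the reach itself. Median log2 fold changes against wild-type males were 0.74 in roX-KO males and 0.90 in females for the higher genes, and -0.78 and -1.03 for the lower ones. This number was between 284 and 317 without any 1 roX-KO library and 346 without female 2, and it was 2079 among the larger set that passed without female 3. Shared genes had median exon lengths of 2044 (higher) and 1886 bases (lower), beside 1934 over all genes, and median levels of 4.10 and 4.55 log2 CPM, beside 4.44.

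Some of the strongest rises lay next to each other. A run of 7 consecutive tested genes on 2R, from CG43711 to CG15225 (20778249 to 20793795, dm6), was higher in both groups, with log2 fold changes of 0.60 to 3.33 in roX-KO males and 0.99 to 2.85 in females. CG44666 had 17.2, 17.8 and 16.01 CPM in roX-KO males and 12.9, 11.3 and 12.4 CPM in females, against 1.46, 1.69 and 1.92 CPM in wild-type males. CG43666 had 124, 145 and 132 CPM in roX-KO males and 172, 190.4 and 204.6 CPM in females, against 33.4, 40.6 and 35.5 CPM in wild-type males. CG43677 had 28.5, 32.4 and 28.1 CPM in roX-KO males and 32.3, 31.7 and 30.6 CPM in females, against 5.09, 6.14 and 5.64 CPM in wild-type males. In these 3 genes the replicates of each group were close, and female 3 did not stand apart. Upstream, CG34201 (2.32 and 2.56), CG34202 (1.79 and 2.54) and CG13443 (1.01 and 2.25) were higher too, while CG43709, at under 4 CPM in every library, passed in females only. Downstream, insc (0.23 and -0.54) and sktl (-0.01 and -0.07) were not shared. This block was noticed in the values, no test of clustering was made, and its genes have no descriptive names.

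**Figure D5:**
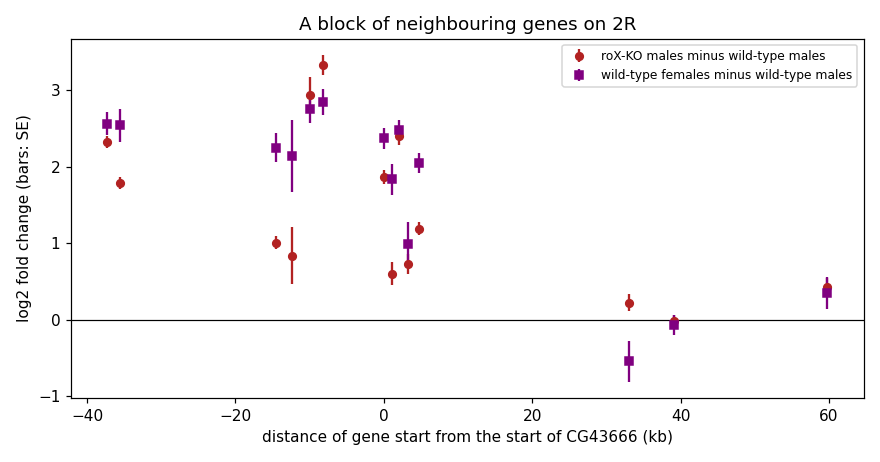
Log2 fold changes with standard errors against wild-type males, for roX-KO males (circles) and females (squares), by distance of the gene start from the start of CG43666. From 37.3 kb before to 4.8 kb after that start all genes are above 0 in both comparisons, and the genes 33.1 kb or more beyond it lie between -0.54 and 0.43.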

How the data were processed

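Polyadenylated RNA of 9 libraries of whole first instar larvae was read as paired ends on a DNBSEQ platform, per the labels' protocols, which mention no step that marks strand. The authors deposited raw read counts per gene, 1 table per library. HISAT2 2.2.1, SAMtools 1.13, HTSeq 2.0.2, DESeq2 and the dm6 build are named in the submitters' processing notes. The strand setting of the counting is not given in the sources used here, nor is the release of the annotation. Closing lines of unassigned reads were left out, among them 45.7 to 47.9% of read pairs in no feature. Of 17611 gene IDs 17556 matched a dm6 annotation. A deposited table of normalized values for the male libraries was not used here.

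Genes were kept by filterByExpr over all 9 libraries (minimum count 10, minimum total 15). Scaling was by TMM, and each comparison with wild-type males was fitted on its own 6 libraries with edgeR 4.0.16 (robust quasi-likelihood F-test, limma 3.58.1, R 4.3.3). Adjustment by Benjamini and Hochberg ran over 11308 genes, with calls at an adjusted p under 0.05. A gene was called shared when called in both comparisons with the same sign. Log2 CPM used a prior count of 2. The coefficient of variation within groups (edgeR's biological coefficient of variation) was 0.076 in the fit of the male groups. It was 0.198 in the fit of females and wild-type males. A mean of both groups against wild-type males was fitted over all 9 libraries, and roX-KO males against females in their 6. A floor of 3 counts over a group stands for 0 counts and covers counting error only. The code was tested on simulated data.

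The members and the 38 gene lists were chosen with earlier results of these data known. Genes were named by a rule. The roX genes, Hsp27 and Hsp68 were always named. Among shared genes with a mean log2 CPM of at least 1 and all 6 libraries on the same side of the wild-type males, ranked by the smaller of the 2 fold changes, the 8 highest and lowest were named, likewise the 8 each way with a descriptive symbol and the 4 each way on the X. From each list the 3 largest shared genes were named. Other members of the lists, and neighbours on 2R, were named after their values were seen. The rule also asked for promoters of heat shock genes, which were not analysed here. Genes with 25% or more of their exons under another gene are given as uncertain. The alternatives were other scalings, DESeq2 1.42.0, no filter, 1 fit of all libraries, a replicate block and each library left out.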

Additional observations from a re-analysis of the deposited data

Results flagged for a closer look

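Among the 102 shared genes chosen by rule, 39 differed between roX-KO males and females (edgeR adjusted p under 0.05), beside 27.2% of all genes tested. The rule ranked genes by differences in these same libraries, so nothing is read from the count. For these 39 the same direction against wild-type males came with unlike sizes. The values below are roX-KO males minus females on the log2 scale, and genes with 3 or fewer counts in a group are left out. Of the chaperone genes so chosen, those that differed were lower by less in roX-KO males than in females, namely Hsp27 (1.71), Hsp68 (1.72), Hsp26 (1.36), Hsp70Ab (1.26), Hsp23 (0.55) and Sil1 (0.85), and outside the rule Hsp83 (1.34). Outside the rule, Hsp60A (-0.57) and CCT6 (-0.42) were lower by more in roX-KO males, and DnaJ-1 (0.08), chosen by the rule, did not pass.

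Other genes that were lower in both groups were also lower by less in roX-KO males, namely CG10474 (0.91), Jra (0.56), aub (2.48), zpg (4.71), RpL22-like (5.62), RpS19b (4.17), ATPsynepsilonL (2.36), Rpt3R (2.15), Rpt4R (0.86) and ple (2.25). Another set was lower by more in roX-KO males than in females, namely roX1 (-2.84), Lcp65Ae (-2.42), Ilp5 (-2.18), Cyp18a1 (-0.45), Cpr92F (-2.98) and TwdlC (-2.44). It holds the roX1 control and cuticle genes.

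Genes higher in both groups rose by more in roX-KO males for CG44666 (0.47), rib (1.43), Cyp4e3 (1.94), Bace (3.05), CG32751 (2.53), TotC (2.82), mre11 (0.89), Lip4 (0.58) and Hr3 (0.70). They rose by more in females for CG3397 (-0.77), Cpr47Ed (-0.68), PGRP-SC1b (-0.62), Ugt302K1 (-0.73), CG17959 (-1.47), Irbp (-0.43), Cdk2 (-0.73) and m (-1.10). The reads of Cdk2 and Hr3 are uncertain, since other genes overlap them. Wild-type male libraries do not enter these differences, and sex, genotype and the making of the female libraries cannot be told apart in them.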

How the results depend on the processing

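The number of genes with a shared sign (7427) stayed between 7016 and 8145 with any 1 library left out. The number of shared genes did not stay: with 1 library left out it ranged from 250 to 1820 higher and from 462 to 1908 lower genes, and the contrast of both groups against wild-type males from 1029 to 3033 higher and 1528 to 3308 lower. The number that also differed between roX-KO males and females ranged from 284 to 2079. With female 3 and wild-type male 2 both left out, an alternative chosen after seeing the data, 2074 were higher and 2182 lower, 3070 and 3242 in the combined contrast, and 2386 differed between roX-KO males and females. A limit of 2-fold in each comparison left 151 and 236. Other scalings, DESeq2 (766 and 1030), no filter on low counts (631 and 838) and 1 fit of all libraries (823 and 935) stayed within 1.5 times. Scaling by total counts moved the split from 721 higher and 874 lower to 855 and 663, and that of the combined contrast from 1767 and 1946 to 2431 and 1439. Of the 1595 shared genes, 1208 passed with total counts, 1478 with DESeq2 and 754 with the replicate block. Of the 102 named genes 58 passed in both comparisons under all 18 alternatives and 0 changed direction; most losses came with a wild-type male library left out (28 to 36 genes) or with the block (36).

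The labels number replicates 1 to 3 in every group but tie no number to a culture or day. Same-numbered libraries of the male groups deviated together by correlations of -0.031 to 0.008, and wild-type males and females by 0.531, -0.724 and -0.580. With 3 libraries a group, such correlations cannot tell whether same-numbered samples share a culture or day, so a pairing is unknown. With the replicate number as a block 291 genes were higher and 466 lower in both, and 343 of them differed between roX-KO males and females. Precision is limited by 3 libraries a group and by the spread of the female libraries, and rare transcripts near 1 CPM rest on few counts.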

Other observations

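Further runs of neighbouring tested genes were shared in the same direction; they were found by scanning the values, and no test was made of how often such runs arise. On 3R 7 genes from CG13614 to CG13616 (24369568 to 24393762, dm6) were higher, with log2 fold changes of 0.77 to 2.05 in roX-KO males and 1.47 to 2.33 in females. All 7 were weakly expressed: CG17780 had 5.09, 5.42 and 5.55 CPM in roX-KO males and 7.08, 6.83 and 8.56 CPM in females, against 1.81, 2.11 and 1.86 CPM in wild-type males, and CG17781 had log2 fold changes of 1.38 and 1.91. On the X 5 genes from CG14424 to CG14421 (2925884 to 2942329) were higher, by 0.70 to 2.15 and 1.53 to 2.89. CG32793, the most abundant in roX-KO males after CG14421, had 533, 508 and 574 CPM in roX-KO males and 786, 841 and 992 CPM in females, against 246, 240.1 and 240.2 CPM in wild-type males. The run lies within 200 kb of w, where females and both male groups differ in the level of w, and the part of that difference in these rises was not tested. CG14422, close by, did not share it, with 6.25, 5.64 and 6.86 CPM in roX-KO males and 153, 172 and 228 CPM in females, against 118, 138 and 119.5 CPM in wild-type males. CG14423, just beyond CG14422, was again higher in both groups (log2 fold changes 1.24 and 1.54). On 3L 5 genes from Hsp26 to Hsp27 (9376418 to 9385694) were lower, among them an antisense RNA that cannot be told from its partner without strand, and Hsp67Ba, which is uncertain for the same reason. Runs of larval cuticle genes were lower too, 5 on 3L (6134697 to 6142413, by -5.11 to -2.68 in roX-KO males and -2.40 to -0.98 in females) and 4 on 2R from Lcp1 to Lcp4 (8430115 to 8438495).

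Below the X genes of the report, ranked by the smaller fall, several encode factors that act on RNA. The RNA methyltransferase gene Nsun2 had 32.9, 35.8 and 37.9 CPM in roX-KO males and 29.8, 31.1 and 38.4 CPM in females, against 90.6, 92.9 and 96.01 CPM in wild-type males. Pop1, of RNase P, had 5.65, 6.43 and 5.71 CPM in roX-KO males and 4.65, 5.14 and 6.57 CPM in females, against 14.8, 14.98 and 16.1 CPM in wild-type males. The exosome gene Rrp45 had 7.66, 7.12 and 7.41 CPM in roX-KO males and 6.27, 6.12 and 9.83 CPM in females, against 15.3, 19.5 and 16.8 CPM in wild-type males. The nucleolar gene Mybbp1A had log2 fold changes of -1.21 in roX-KO males and -2.38 in females and Rbm13 of -1.22 and -1.81. The adenine nucleotide carrier gene Ant2 had -1.59 and -1.38. These were picked from the values, and no theme was tested. On 3R the transcription factor gene ich was higher in both groups (26.7, 30.3 and 27.4 CPM in roX-KO males and 38.5, 34.9 and 22.4 CPM in females, against 11.8, 9.81 and 11.1 CPM in wild-type males), with female 3 below the other females.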
